A study of Mus musculus with 8 samples.

Results

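Glucocorticoid-responsive genes and metallothioneins were examined in mouse tibialis anterior (TA) muscles after knockdown of *Uba1*, the gene for the E1 enzyme that activates ubiquitin. The 8 genes, *Nr3c1*, *Fkbp5*, *Tsc22d3*, *Sgk1*, *Pdk4*, *Zbtb16*, *Mt1* and *Mt2*, were taken by symbol from the 41709 genes of the expression table. All 8 were among the 11530 genes tested, those that reached 1 TPM in 4 muscles or more of the 8. TPM are read counts divided by transcript length and scaled to the same total in each library, so that levels of different genes can be set side by side.

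The study electroporated non-targeting (NT) siRNAs into one TA muscle and a pool of 4 *Uba1* siRNAs into the contralateral TA muscle of male C57BL/6J mice aged 3 months, and RNA was sequenced 7 days later from 4 muscles of each kind. Both muscles of a mouse carried siRNAs and were electroporated, and no untouched muscle was analysed here. The sample titles place every NT muscle on the R side and every *Uba1* muscle on the L side, so the side and the siRNA cannot be told apart. Titles and descriptions name UBA1 for all 4 knockdown muscles, while the treatment tags of replicates 2, 3 and 4 read UBA2, UBA3 and UBA4. *Uba1* was between 59.0 and 63.6 TPM with NT siRNAs and between 6.77 and 23.1 TPM with *Uba1* siRNAs, in all 4 muscles lower, which is the direction that the titles give.

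Glucocorticoids enter cells and bind the receptor encoded by *Nr3c1*, which moves to the nucleus and binds glucocorticoid response elements, paired copies of the half-site AGAACA. In skeletal muscle the hormone turns on genes for feedback on the receptor, for fuel use and for the breakdown of protein. Metallothioneins are small cysteine-rich proteins that bind zinc and copper. Their genes are classic targets of the zinc-sensing factor MTF1, which binds metal response elements, and of glucocorticoids.

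*Mt1* (chr8:94905710-94906955, plus strand) and *Mt2* (chr8:94898819-94900207, plus strand) are protein-coding neighbours in GRCm39, with 5502 bases between them. Their RefSeq promoter windows, from 250 bases before to 50 bases after the start, are shown because these genes were the members with the largest log2FC. Capitals mark each match to the metal response element core, searched as TGCACNC or TGCGCNC on both strands, so that a match on the minus strand appears as its reverse complement. The windows are given in GRCm38.p6, the build of the RefSeq table, which is not the build of the expression table.
Mt1, chr8:94178839-94179138, plus strand: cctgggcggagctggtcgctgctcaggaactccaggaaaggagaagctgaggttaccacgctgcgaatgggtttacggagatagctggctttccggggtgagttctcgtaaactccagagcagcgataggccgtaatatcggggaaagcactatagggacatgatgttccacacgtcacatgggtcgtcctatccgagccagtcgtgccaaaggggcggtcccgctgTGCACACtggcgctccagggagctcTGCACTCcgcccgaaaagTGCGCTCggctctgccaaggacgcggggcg
Mt2, chr8:94172368-94172667, plus strand: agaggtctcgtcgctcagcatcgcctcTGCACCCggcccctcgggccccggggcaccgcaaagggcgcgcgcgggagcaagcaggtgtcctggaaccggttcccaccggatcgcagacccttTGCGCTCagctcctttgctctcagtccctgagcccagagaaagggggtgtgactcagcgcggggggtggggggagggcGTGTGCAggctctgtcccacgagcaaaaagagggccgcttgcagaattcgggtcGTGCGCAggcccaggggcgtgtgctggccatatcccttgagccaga
The *Mt1* window held 3 matches and the *Mt2* window 4. At least 1 match stood in 25.7% of the 32851 RefSeq windows of this length, at least 3 in 1.97% and at least 4 in 0.517%. Of the 13 windows searched for 6 of the 8 genes, 1 of *Sgk1* also held a single match. Windows of *Nr3c1* and *Zbtb16* were not among those searched, so nothing is said here about their promoters.

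The full palindrome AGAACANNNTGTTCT, which reads the same on both strands, stood in 3 of the 32851 windows, or 0.00913%. One of these 3 belongs to *Sgk1*, and it is shown for that reason with the palindrome in capitals, beginning at base -189 from the start.
Sgk1, chr10:21993640-21993939, plus strand: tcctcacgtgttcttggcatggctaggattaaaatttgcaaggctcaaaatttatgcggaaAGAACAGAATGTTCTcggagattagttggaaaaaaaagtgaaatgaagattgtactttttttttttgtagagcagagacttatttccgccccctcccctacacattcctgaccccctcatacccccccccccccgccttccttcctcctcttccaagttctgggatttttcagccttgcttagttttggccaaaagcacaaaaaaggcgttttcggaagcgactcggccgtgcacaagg
This stretch of letters was not in the other windows of the 8 genes that were searched, those of further *Sgk1* starts and those of *Fkbp5*, *Pdk4*, *Tsc22d3*, *Mt1* and *Mt2*. These matches describe sequence only, and binding at them was not measured.

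With NT siRNAs the 8 mRNAs covered a wide range of levels. *Pdk4* was the highest at 275 ± 97.2 TPM (SD, n = 4), above the range of every other member. *Sgk1*, *Mt2*, *Mt1* and *Tsc22d3* followed, with means from 130 down to 77.8 TPM and each range overlapping that of the next. *Zbtb16* and *Nr3c1* overlapped around 20.7 and 15.9 TPM. *Fkbp5* was lowest, at 6.39 ± 0.981 TPM (SD, n = 4), below every *Nr3c1* value.

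**Figure D1:**
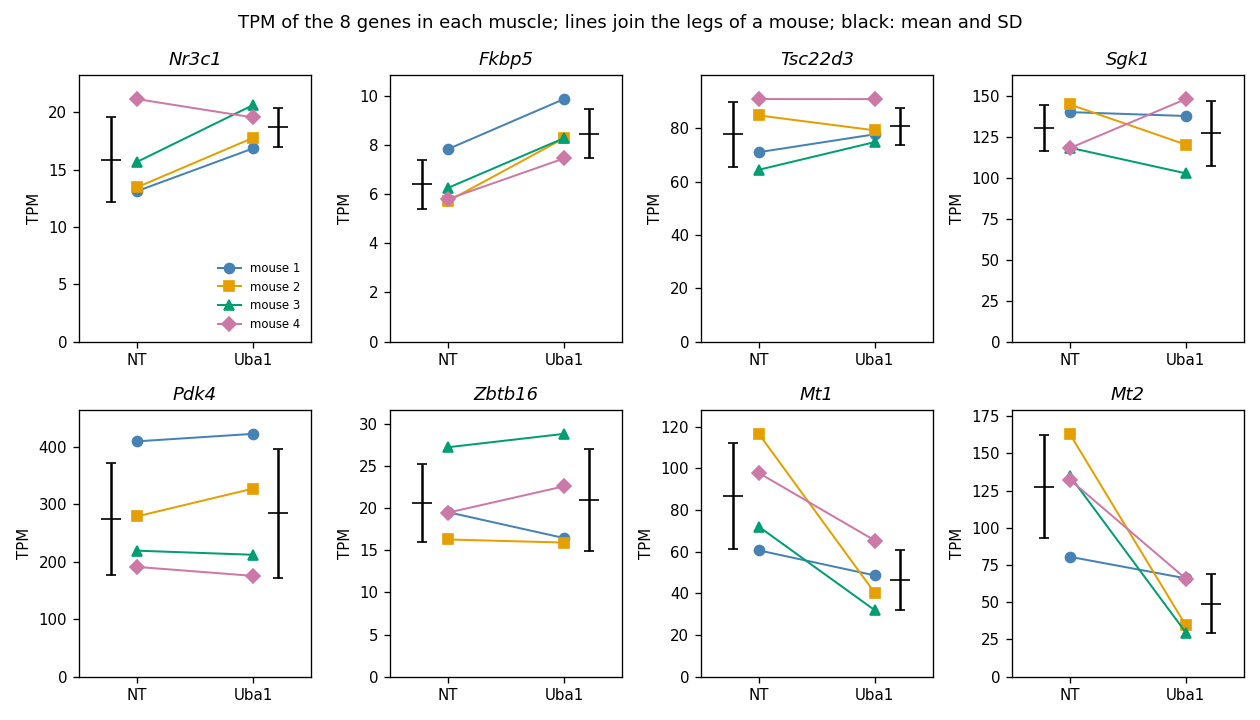
TPM of the 8 genes in each muscle, on a linear axis from 0, with NT siRNAs at the left and *Uba1* siRNAs at the right of each panel. A line joins the legs of 1 mouse, and black bars give the mean and SD of 4 muscles. *Mt1* and *Mt2* lines all slope down, *Fkbp5* lines all slope up, and *Pdk4* lines are nearly flat and keep the mice apart.

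Differences between siRNAs were tested with limma on log2(TPM + 1) over all 11530 genes, a scale on which the change of a low gene comes out too small. At an adjusted p under 0.05, 3 genes (0.0260%) passed and none of the 8 did. With the mouse as a block 57 genes (0.494%) passed, again none of the 8. At an unadjusted p under 0.05, 2 of the 8, *Mt1* and *Mt2*, were lower with *Uba1* siRNAs, against 1.98% of all genes. In the higher direction 1 of the 8, *Fkbp5*, had such a p, against 16.0% of all genes. After median-ratio scaling of the TPM these shares of all genes were 6.70% lower and 3.90% higher, and the members counted were again 2 lower and 1 higher. The median log2FC of all genes tested was 0.11, with 81.8% of genes above 0, and median-ratio scaling moved it to -0.0055, with 48.0% above 0, so a small positive log2FC lies near the middle of all genes.

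*Mt2* was the member with the largest difference. Its TPM with NT siRNAs were 80.5, 163, 135 and 132 in mice 1 to 4. In the contralateral muscles with *Uba1* siRNAs they were 66.0, 34.4, 29.6 and 65.8. Every knockdown muscle was below every NT muscle, a separation in this direction that 1.01% of all genes showed, and *Mt2* was the only member among them. The mean was 2.61-fold lower, at 49.0 ± 19.7 against 128 ± 34.4 TPM (SD, n = 4 each). The log2FC was -1.41 (SE 0.301, 95% interval -2.09 to -0.73), with an adjusted p of 0.129 from limma and 0.0838 with the mouse as a block. An exact two-sided permutation test that shuffled all 8 muscles over 70 arrangements, ignoring the pairing, gave p = 0.0286, the smallest it allows. Swapping the siRNAs only within mice leaves 16 arrangements, and that exact test gave p = 0.125 for *Mt2*, *Mt1* and *Fkbp5*, the smallest it allows, so it cannot pass 0.05 with 4 mice.

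*Mt1* encodes the other widely expressed metallothionein. With NT siRNAs it was at 60.6, 117, 72.0 and 97.8 TPM in mice 1 to 4. With *Uba1* siRNAs it was at 48.6, 40.1, 31.8 and 65.3 TPM. It was lower in the knockdown leg of all 4 mice, but the groups overlapped, since mouse 4 with *Uba1* siRNAs was above mouse 1 with NT siRNAs. The mean was 1.87-fold lower, at 46.5 ± 14.3 against 86.7 ± 25.2 TPM (SD, n = 4 each). The log2FC was -0.89 (SE 0.247, 95% interval -1.45 to -0.33), with an adjusted p of 0.165 from limma. The unpaired exact permutation test gave p = 0.0571.

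The size of the difference varied from mouse to mouse in the same way for both metallothioneins. In mouse 2 the knockdown leg held 0.344 of the *Mt1* TPM of the NT leg and 0.211 of its *Mt2* TPM. In mouse 1 these ratios were 0.801 and 0.820. Mice 3 and 4 lay between, at 0.442 and 0.668 for *Mt1* and 0.219 and 0.497 for *Mt2*. *Uba1* itself was lowest in the knockdown leg of mouse 2, at 6.77 TPM, and was at 18.1, 15.8 and 23.1 TPM in those of mice 1, 3 and 4. The relation of these levels to the leg ratios was not tested.

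The balance between the metallothionein mRNAs was set out after their values had been seen. *Mt1* TPM divided by *Mt2* TPM was 0.752, 0.714, 0.533 and 0.738 with NT siRNAs. It was 0.735, 1.17, 1.07 and 0.993 with *Uba1* siRNAs. The ratio was higher in the knockdown leg of 3 of 4 mice and about level in mouse 1. On the log2 scale the mean difference was 0.53, with an exact two-sided permutation p of 0.0857 over all muscles and 0.25 within mice. With 1 muscle left out in turn it lay between 0.41 and 0.67, and the unpaired exact permutation p was 0.0857 or 0.114 except without the knockdown muscle of mouse 1, the mouse that did not share the direction, where it was 0.0286. No run longer than 20 bases is shared between annotated *Mt1* and *Mt2* transcripts. *Gm45774*, annotated on the strand opposite *Mt2* with overlapping exons, was between 0.0778 and 0.582 TPM, and the library kit did not mark the strand.

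**Figure D2:**
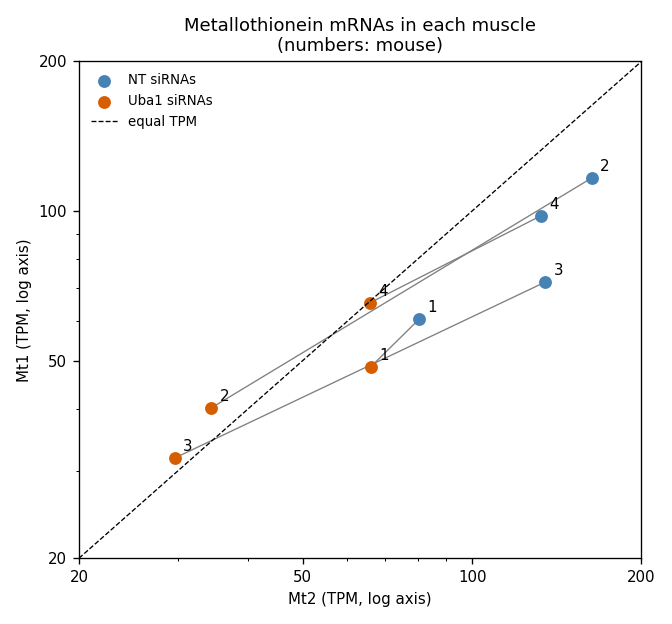
*Mt1* TPM against *Mt2* TPM on log axes for the 8 muscles, blue with NT siRNAs and orange with *Uba1* siRNAs, numbered by mouse, with a line joining the legs of a mouse. NT muscles lie below the dashed line of equal TPM, at ratios from 0.533 to 0.752, while 2 of the 4 *Uba1* muscles lie above it, at 1.17 and 1.07.

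*Nr3c1* (chr18:39543598-39652474, minus strand, GRCm39) encodes the glucocorticoid receptor. Its TPM were 13.1, 13.5, 15.7 and 21.2 with NT siRNAs in mice 1 to 4, and 16.9, 17.8, 20.6 and 19.6 with *Uba1* siRNAs. The receptor mRNA was higher in the knockdown leg of mice 1, 2 and 3 and lower in that of mouse 4, and the groups overlapped. The means were 15.9 ± 3.71 and 18.7 ± 1.71 TPM (SD, n = 4 each), with a log2FC of 0.25 (SE 0.140, 95% interval -0.071 to 0.56) and an adjusted p of 0.363 from limma. With the mouse as a block the interval was 0.019 to 0.47, above 0, with an adjusted p of 0.176 from limma. After median-ratio scaling the log2FC was 0.12, and its interval included 0 with or without the block.

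*Fkbp5* (chr17:28618058-28737521, minus strand, GRCm39) encodes FKBP51, a co-chaperone that lowers the affinity of the receptor for hormone and is itself induced by it. The NT legs held 7.82, 5.71, 6.25 and 5.79 TPM and the knockdown legs 9.86, 8.26, 8.27 and 7.44 TPM. It was higher in the knockdown leg of all 4 mice. The groups overlapped in a single pair of muscles, since mouse 1 with NT siRNAs was above mouse 4 with *Uba1* siRNAs, and no member was among the 10.6% of all genes whose knockdown muscles were all above the NT muscles. The means were 6.39 ± 0.981 and 8.46 ± 1.01 TPM (SD, n = 4 each), a ratio of 1.32. The log2FC was 0.36 (SE 0.110, 95% interval 0.11 to 0.61), with an adjusted p of 0.178 from limma, 0.0662 with the mouse as a block, and p = 0.0571 in the unpaired exact permutation test. It stayed above 0 after median-ratio scaling, at 0.24.

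*Tsc22d3* (chrX:139440091-139501408, minus strand, GRCm39) encodes GILZ, a leucine zipper protein through which glucocorticoids restrain inflammatory transcription factors. Its TPM were 71.0, 84.8, 64.4 and 90.9 with NT siRNAs and 77.7, 79.2, 74.8 and 90.9 with *Uba1* siRNAs. Mice 1 and 3 were higher in the knockdown leg and mouse 2 lower, and mouse 4 was level. The log2FC was 0.061 (SE 0.114, 95% interval -0.20 to 0.32), with an adjusted p of 0.774 from limma, and after median-ratio scaling it was -0.068.

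*Sgk1* (chr10:21758083-21875802, plus strand, GRCm39), the gene of the response element shown above, encodes a serum- and glucocorticoid-induced kinase that acts on ion channels and FOXO factors. The NT muscles held 140, 145, 118 and 118 TPM and the *Uba1* muscles 138, 120, 103 and 148 TPM. The knockdown leg was lower in mice 1, 2 and 3 and higher in mouse 4. The log2FC was -0.042 (SE 0.122, 95% interval -0.32 to 0.23), with an adjusted p of 0.857 from limma, and after median-ratio scaling it was -0.17.

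*Pdk4* (chr6:5483097-5496339, minus strand, GRCm39) encodes pyruvate dehydrogenase kinase 4, which blocks the entry of pyruvate into the citric acid cycle and is induced in muscle by fasting and glucocorticoids. Its TPM were 410, 279, 219 and 191 in mice 1 to 4 with NT siRNAs. With *Uba1* siRNAs they were 423, 328, 212 and 175. Both groups ran from mouse 1 to mouse 4 in the same order, and each knockdown leg was close to its own NT leg. The ratio of the knockdown to the NT leg stayed between 0.918 and 1.17, while the geometric mean of the legs went from 416 TPM in mouse 1 to 183 TPM in mouse 4, a 2.27-fold range. The log2FC between siRNAs was 0.026, with a 95% interval of -0.66 to 0.72 that narrowed to -0.16 to 0.21 with the mouse as a block, and an adjusted p of 0.968 from limma without it.

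*Zbtb16* (chr9:48563141-48748664, minus strand, GRCm39) encodes PLZF, a zinc finger repressor that is strongly induced by glucocorticoids in many cells. Its TPM were 19.6, 16.3, 27.3 and 19.5 in the NT muscles and 16.5, 15.9, 28.9 and 22.6 in the *Uba1* muscles. Mouse 3 was the highest and mouse 2 the lowest in both groups. The log2FC was 0.0049 (SE 0.203, 95% interval -0.45 to 0.46), with an adjusted p of 0.991 from limma.

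**Figure D3:**
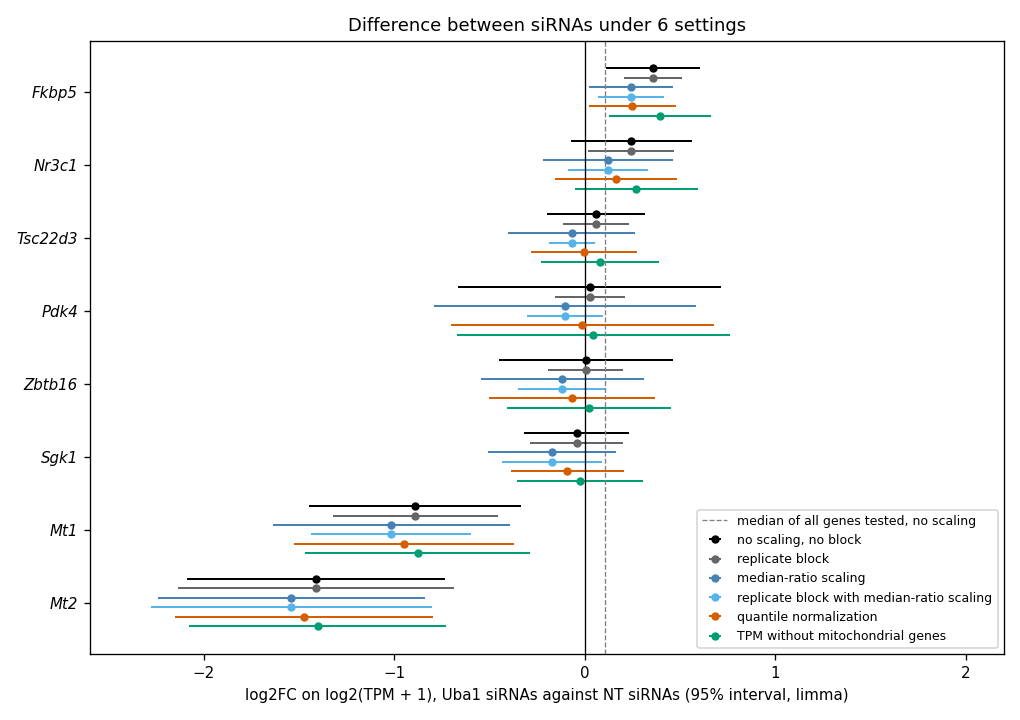
log2FC (points) and 95% intervals from limma (lines) for each gene, *Uba1* siRNAs against NT siRNAs, under 6 settings in colours. The intervals of *Mt1* and *Mt2* lie below 0 and those of *Fkbp5* above 0 in every setting plotted, those of *Tsc22d3*, *Pdk4*, *Zbtb16* and *Sgk1* include 0, and the dashed line marks the median of all genes, 0.11.

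The pairing of legs allowed the difference between mice to be tested apart from that between siRNAs, with a limma F test over all genes that took the siRNA into account. At an adjusted p under 0.05, 34 genes (0.295%) differed between mice, and 1 of the 8, *Pdk4*, was among them (adjusted p = 0.0310). *Zbtb16* came next, with a 1.74-fold range between mice, from 16.1 TPM in mouse 2 to 28.1 TPM in mouse 3, and an adjusted p of 0.0833 from limma. *Fkbp5*, *Tsc22d3*, *Nr3c1*, *Sgk1*, *Mt1* and *Mt2* ranged between mice by 1.26-fold to 1.67-fold, with adjusted p from 0.180 to 0.804. The mouse that was highest was not the same for each gene, mouse 1 for *Fkbp5*, *Sgk1* and *Pdk4*, mouse 3 for *Zbtb16*, and mouse 4 for *Nr3c1*, *Tsc22d3*, *Mt1* and *Mt2*. The call for *Pdk4* depended on the processing, with an adjusted p under 0.05 in 9 of 15 alternatives and between 0.0106 and 0.226 over them. It was not called without the NT or the *Uba1* muscle of mouse 3 or of mouse 4.

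**Figure D4:**
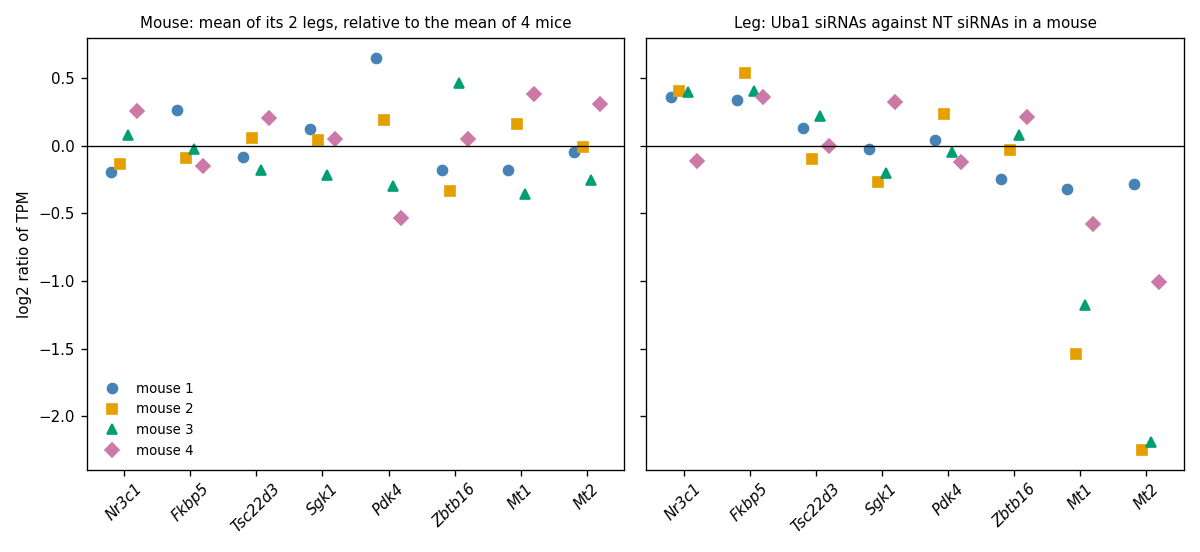
log2 ratios of TPM for each gene. The left panel gives each mouse (geometric mean of its 2 legs) relative to the mean of the 4 mice, and the right panel gives the *Uba1* leg relative to the NT leg of each mouse. *Pdk4* spreads between mice and lies near 0 between legs, and *Mt1* and *Mt2* spread mostly between legs.

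Other genes of the same pathways were described from fixed lists, without a test of the lists. Of 27 other glucocorticoid-responsive genes tested, 13 had a positive and 14 a negative log2FC, with 5 higher and 4 lower at an unadjusted p under 0.05. Their median log2FC was -0.024, against 0.11 for all genes, and 1 was higher and 5 lower at that p after median-ratio scaling. None had an adjusted p under 0.05 without the block. With the block, *Ddit4* passed (log2FC 0.88, adjusted p = 0.0359 from limma). This gene, for the mTORC1 inhibitor REDD1, measured 25.3, 26.3, 11.8 and 13.9 TPM in the NT legs and 38.2, 44.4, 23.9 and 34.3 TPM in the knockdown legs, higher in all 4 mice while the groups overlapped. The smallest unadjusted p belonged to *Nfkbia*, for the NF-kB inhibitor IκBα (log2FC -0.69), *Cebpb*, for a transcription factor of the C/EBP family (-0.34), and *Sult1a1*, for a sulfotransferase (0.37).

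Among 17 tested receptor partners and genes of corticosteroid metabolism, 15 were higher, 3 of them at an unadjusted p under 0.05, and none was lower at that p. The median log2FC was 0.13, near that of all genes, and with median-ratio scaling 9 were higher and none had such a p. *Fkbp4*, for FKBP52, the co-chaperone that opposes FKBP51, measured 74.2, 68.6, 70.5 and 70.3 TPM in the NT legs and 79.3, 80.4, 80.1 and 79.2 TPM in the knockdown legs. The knockdown muscles were all above the NT muscles, as in 10.6% of all genes, by a log2FC of 0.17 that became 0.040 after median-ratio scaling. The coactivator gene *Ncoa2* had a log2FC of 0.26. *Hsd11b1*, for the enzyme that regenerates active glucocorticoid within cells, averaged 2.71 ± 0.204 TPM in NT muscles and 2.70 ± 0.338 TPM in *Uba1* muscles (SD, n = 4 each).

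Among all genes 81.8% were above 0, and 16.0% were higher at an unadjusted p under 0.05. Of 24 tested genes of zinc and copper handling, 23 were higher and 5 had such a p, all of them higher. Their median log2FC of 0.12 was close to that of all genes, and after median-ratio scaling 11 were higher and 3 had such a p. With the mouse as a block *Slc30a2*, for a zinc transporter that loads vesicles, passed (log2FC 0.49, adjusted p = 0.0382 from limma). The NT legs held 10.9, 9.02, 7.37 and 8.56 TPM and the knockdown legs 15.2, 12.3, 11.8 and 12.5 TPM. The knockdown muscles were all above the NT muscles, as in 10.6% of all genes, and after median-ratio scaling the log2FC was 0.37. *Slc30a1*, the zinc exporter of the plasma membrane and like the metallothioneins a target of MTF1, had a log2FC of 0.28. It was above 0 like 81.8% of all genes, while *Mt1* and *Mt2* were below 0. *Slc30a4* had a log2FC of 0.36, and after median-ratio scaling these 2 exporter genes were at 0.18 and 0.24. *Mtf1* itself averaged 5.02 ± 0.0314 TPM in NT muscles and 5.07 ± 0.753 TPM in *Uba1* muscles (SD, n = 4 each). The part of MTF1 in the lower *Mt1* and *Mt2* was not tested. *Mt3*, the metallothionein best known from brain, was the 1 lower gene of the list, at 2.50, 8.54, 15.7 and 3.04 TPM with NT siRNAs and 6.93, 1.80, 6.29 and 1.30 TPM with *Uba1* siRNAs, with wide overlap.

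Around *Pdk4*, 25 of 28 tested genes of the pyruvate dehydrogenase complex and of fasting fuel use were higher, 9 at an unadjusted p under 0.05, with a median log2FC of 0.18. With median-ratio scaling 18 were higher, and 1 was higher and 1 lower at that p. The smallest p belonged to *Pdp2*, for a phosphatase that opposes the PDK kinases (log2FC 0.40), *Pdk1*, for another of these kinases (0.21), and *Ppargc1a*, for the coactivator PGC-1α (0.39). Median-ratio scaling moved these log2FC to 0.32, 0.092 and 0.27. Of 15 tested paralogs of the 8 genes 3 had such a p, all higher, *Pdk1* and *Fkbp4* among them, and 12 of the 15 were above 0, with a median log2FC of 0.093. After median-ratio scaling 5 were above 0, the median was -0.019, and 1 was higher and 1 lower at that p. No gene of either list had an adjusted p under 0.05 with or without the block.

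**Figure D5:**
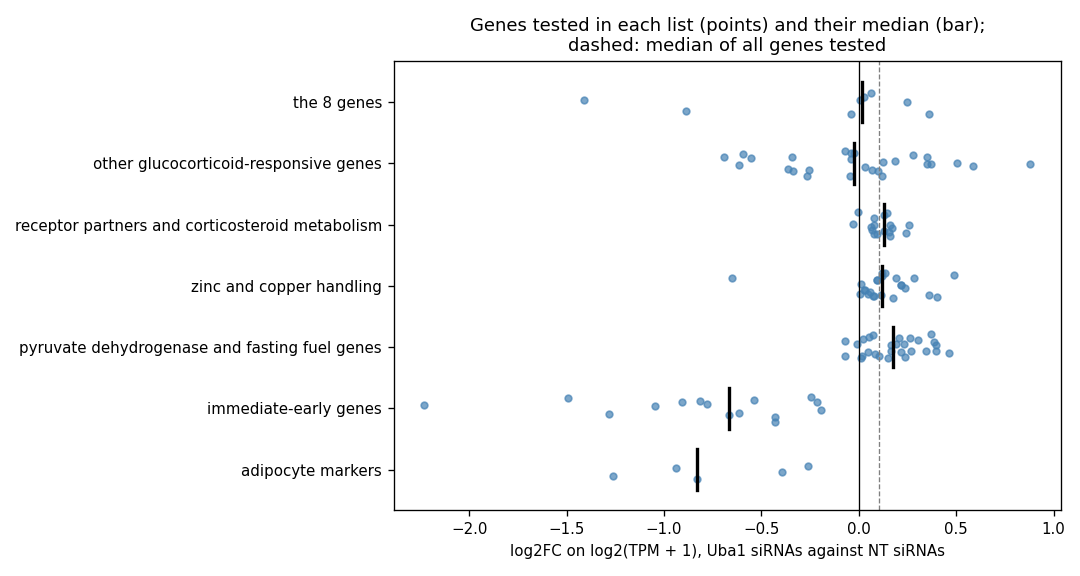
log2FC on log2(TPM + 1) for each tested gene (points) and the median (black bar) of the 8 genes and 6 further lists, with a dashed line at the median of all genes, 0.11. The lists of receptor partners, zinc and copper handling and fuel genes lie around that line. All tested genes in the lists of immediate-early genes and adipocyte markers lie below 0.

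Other cell types and early-response genes were read from marker lists in the same muscles, in which fewer cells of a type and less RNA per cell cannot be told apart. Skeletal muscle markers summed to 132835 to 147210 TPM with NT siRNAs and to 107989 to 148580 TPM with *Uba1* siRNAs, which is the tissue that the labels give. All 15 tested genes of the immediate-early list were lower, 8 of them at an unadjusted p under 0.05, with a median log2FC of -0.67. After median-ratio scaling these counts were again 15 and 8. *Dusp1*, an early-response gene outside that list, had a log2FC of 0.12. *Atf3* passed with the mouse as a block (log2FC -2.23, adjusted p = 0.00663 from limma). By unadjusted p without the block *Nr4a2* and *Nr4a1* came next, at log2FC of -1.28 and -0.67, while *Nr4a3* was at -1.49. The summed level of the 16 listed genes was 1313 to 2376 TPM with NT siRNAs and 757 to 1670 TPM with *Uba1* siRNAs. It was lower in the knockdown leg of 3 of 4 mice, with p = 0.114 in the unpaired exact permutation test. The part of these genes in the lower *Mt1* and *Mt2* was not tested.

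All 5 tested adipocyte markers were also lower, 1 at an unadjusted p under 0.05, *Cidec*, with log2FC of -0.83, -1.26 and -0.94 for *Cidec*, *Cfd* and *Adipoq*, and after median-ratio scaling 3 had such a p. The 6 listed markers summed to 65.5, 76.8, 67.8 and 34.0 TPM with NT siRNAs in mice 1 to 4. With *Uba1* siRNAs they summed to 56.8, 7.77, 59.1 and 11.2 TPM, so most of the difference lay in mice 2 and 4. No marker of this list was at 0 in every muscle, and the part of these markers in the lower *Mt1* and *Mt2* was not tested. Fibroblast and tendon markers were higher in 7 of 7, led by *Lum* (0.49), *Scx* (0.42) and *Col1a1* (0.57), with 2 at an unadjusted p under 0.05 and a median of 0.30, against 1 and a median of 0.19 after median-ratio scaling. No marker of muscle, leukocytes, endothelium, satellite cells and regenerating fibers, or nerve had such a p on unscaled TPM, and after median-ratio scaling 5 of the 10 muscle markers had one, all lower. On unscaled TPM 2 muscle markers were higher, *Myh2* and *Myh1*, and 8 lower. With *Pvalb* these 2 had the smallest p (log2FC -0.32 for *Pvalb*, 0.55 and 0.34). Of the leukocyte markers 5 were higher and 3 lower, led by *S100a8*, *Cd14* and *S100a9* (0.63, -0.56 and 0.46). Of the endothelial markers 4 were higher and 3 lower, led by *Kdr*, *Tek* and *Tie1* (0.22, 0.081 and 0.084), and after median-ratio scaling 1 was higher. Of the satellite cell and regenerating fiber markers 2 were higher and 3 lower, led by *Myod1*, *Myh3* and *Myog* (0.34, -0.73 and -0.39). Of the nerve markers 2 were higher and 2 lower, *S100b* and *Mbp* among them (0.28 and -0.13).

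For each gene the most similar patterns over the 8 muscles were found by the root-mean-square difference of centred log2(TPM + 1), smaller being more alike, a description of muscles that share mice and siRNAs. For *Mt2* these were *Il6* (0.24) and *Gem* (0.34), with *Mt1* in place 3 (0.34). For *Mt1* they were a row listed as *Ddit3_1* (0.14) and *Socs3* (0.16), with *Mt2* in place 51. *Nr3c1* was nearest to *Bach1* (0.043) and *Dennd4c* (0.050), and *Fkbp5* to *As3mt* (0.048) and *Hr* (0.052). *Tsc22d3* was nearest to *Art3* (0.049) and *Shld1* (0.051), and *Sgk1* to *H2ac18* (0.092) and *Myl10* (0.093). *Pdk4* was nearest to *Cdkn2b* and *Gm49207* (0.24 each) and *Zbtb16* to *Dusp16* and *Slc43a3* (0.15 each).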

How the data were processed

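RNA was extracted from 8 TA muscles and sequenced from TruSeq RNA v2 libraries, a kit that does not mark the strand. The authors mapped reads to GRCm39 and computed TPM in CLC Genomics Workbench 20.0.4, and the deposited table holds 1 column of TPM per muscle. The annotation and the treatment of multi-mapped reads are not given in the sources used here. TPM sum to 1000000 in each library and keep no total of reads, so depth is unknown. Mitochondrial genes took 39.9% to 50.3% of the TPM.

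Genes with 1 TPM or more in at least 4 of 8 muscles were tested with limma 3.58.1 (trended variance) in R 4.3.3 on log2(TPM + 1), with Benjamini-Hochberg adjustment over all of them. Single values were compared with exact two-sided permutation tests of 4 against 4 muscles without the pairing and, added after the results were known, by swapping siRNAs within mice, and replicates were muscles of separate mice. The code was tested on simulated data. Muscles with the same replicate number are the legs of 1 mouse by the study's design and the titles. Mice 1 to 4 are these replicate numbers, and the titles number them 1, 6, 7 and 9. The deviations of the 2 legs from the group means had correlations of -0.00040, 0.20, 0.58 and 0.54. The mouse was therefore also fitted as a block. In each other list the 3 genes with the smallest unadjusted p and any gene with an adjusted p under 0.05, with or without the block, were named, and for each of the 8 genes the 2 most similar genes among those with at least 0.5 of its SD over the muscles. *Hsd11b1*, *Mtf1* and *Mt3* were named outside that rule, after their values were seen. A few genes that the rule names are not reported here.

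The alternatives were another pseudocount (0.1), no filter or a mean of 5 TPM or more, median-ratio scaling, quantile normalization, TPM without mitochondrial genes, the mouse as a block, the Kruskal-Wallis test and leaving out each muscle. Median-ratio factors came from all genes above 0 in every muscle, and factors from the tested genes alone were added after the results were known. The 8 genes and all lists were chosen with earlier results of these data known, and the *Mt1* to *Mt2* ratio after seeing the values.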

Additional observations from a re-analysis of the deposited data

How the results depend on the processing

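None of the 8 genes had an adjusted p under 0.05 in any of the 19 alternatives, while 3 had an unadjusted p under 0.05 in limma, and *Fkbp5*, *Mt1* and *Mt2* kept their direction and such a p in all 19, the Kruskal-Wallis test included. Their adjusted p over the alternatives went from 0.0662 to 0.472, from 0.0766 to 0.367 and from 0.0838 to 0.351. *Nr3c1* stayed above 0 in all 19, at 0.12 with median-ratio scaling, and had an unadjusted p under 0.05 with the block and without the NT muscle of mouse 4, where 4 of the 8 genes had one. The replicate block, which pairs the legs of a mouse, gave 57 genes in place of 3 and changed the call of none of the 8. The count of 3 became 28 after median-ratio scaling, 82 when the block was added to this scaling, 28 after quantile normalization, 13 once mitochondrial genes were removed, 11 among genes averaging at least 5 TPM, 0 with the Kruskal-Wallis test (2210 genes had an unadjusted p under 0.05 in it) and 2 to 39 without any 1 muscle, the highest without the *Uba1* muscle of mouse 4. With factors from the tested genes alone, chosen after seeing the data, it was 23, and 76 with the block. In the other gene lists together, marker lists aside, 35 genes had an unadjusted p under 0.05, against 21 with median-ratio scaling, 23 with factors from the tested genes and 22 with quantile normalization. The cause was not tested.

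The 34 genes that differed between mice became 9 with no filter, 95 among genes averaging at least 5 TPM, 77 without mitochondrial genes and 0 to 648 with 1 muscle left out. Of the 8 genes, 1 differed between mice, and 0 did with no filter or with quantile normalization, and 0 to 2 with 1 muscle left out, *Zbtb16* joining *Pdk4* without the NT or the *Uba1* muscle of mouse 1. Small log2FC changed sign with the scaling. *Tsc22d3* was -0.068 with median-ratio scaling with or without the block, -0.059 with factors from the tested genes, -0.0057 with quantile normalization and -0.024 to 0.14 with 1 muscle left out. *Pdk4* was -0.10, -0.095, -0.012 and -0.19 to 0.24 in the same settings, and *Zbtb16* -0.12, -0.11, -0.068 and -0.16 to 0.14. *Sgk1* was -0.17 with median-ratio scaling, -0.16 with factors from the tested genes, and between -0.12 and 0.055 without any 1 muscle. For the *Mt1* to *Mt2* ratio the log2 difference lay between 0.41 and 0.67 when any single muscle was dropped. Depth is unknown, so counting error could not be given.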
